A study of Mus musculus with 216 samples.

Results

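Setdb1, Suv39h1, Suv39h2, Ehmt1, Ehmt2, Atf7ip, Trim28, Pphln1, Mphosph8 and Morc2a encode enzymes that methylate lysine 9 of histone H3 (H3K9) and proteins that work with them. For these 10 of 21938 protein-coding genes, every H3K9me3 domain that overlapped the gene body or the 1 kb upstream was taken from the authors' deposited table. They met 6 of 42890 domains, counted over the autosomes, X and Y. Their own transcription was not measured: what follows describes the mark on the genes that encode the machinery making it.

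ChIP-seq was done in the dTKO line of mouse embryonic stem cells, collected at 0, 1, 3, 12, 24 and 48 h of auxin and dTAG13, compounds that trigger breakdown of proteins fused to a matching degron. All groups shared the genotype Suv39h1 fl/fl, Suv39h2 -/-, Setdb1 fl/fl and a treatment label of both drugs, the 0 h group included, at 100 µg/ml auxin and 0.5 µM dTAG13. Of 216 sequencing runs, the H3K9me3 and HP1β ChIPs took 54 each and their inputs 54 each, or 9 runs for each time point, numbered as 3 repeats of 3 runs. The labels do not say which enzymes carry a degron or how those forms are encoded. From the H3K9me3 time course the authors placed each domain in 1 of 4 decay classes, fast, intermediate, slow or residual. The table gives no value per library or time, so every value below describes the table and carries no replicate error. The labels and the table do not state the limits between classes, so residual is not ranked against slow and is not read as a measured level.

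SETDB1, SUV39H1 and SUV39H2 are the main enzymes that place 3 methyl groups on H3K9, while GLP (Ehmt1) and G9a (Ehmt2) form a complex that mostly places fewer. In embryonic stem cells SETDB1 silences endogenous retroviruses, to which TRIM28 (KAP1) brings it through zinc finger proteins, and ATF7IP keeps SETDB1 stable and in the nucleus. The HUSH complex, with periphilin (Pphln1) and MPP8 (Mphosph8), recruits SETDB1 and the ATPase MORC2 to silence inserted elements. SUV39H enzymes act mainly at pericentromeric satellites and intact retrotransposons.

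The 6 domains lay on Setdb1, Pphln1 and Atf7ip, with 3 residual and 3 intermediate among them and 0 fast or slow. Among the 10 genes, 3 had a domain, against 24.3% of all protein-coding genes. A residual domain was present on 2, against 3.56%, and an intermediate one on 3, against 17.9%; fast and slow ones were present on 1.57% and 7.25% of all protein-coding genes. Of all domains on protein-coding gene windows, 9.94% were residual, 66.2% intermediate, 20.6% slow and 3.31% fast. Of all domains in the genome, 4.57% were residual and 71.5% intermediate. All 6 domains were short, from 0.6 to 1.5 kb, where the median over all domains was 3.0 kb. Of all 42890 domains, 6963 were at most 1.5 kb wide. Among domains of at most 1.5 kb, 5.64% were residual and 79.9% intermediate. Positions are on mm10 (GRCm38), counted from 1, and domains are numbered in the direction of transcription.

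Their sequences fell into different kinds: coding exons of Setdb1, a tandem repeat in Pphln1, stretches with copies elsewhere in the intermediate domains of Setdb1 and Pphln1, and largely unique sequence beside the Atf7ip promoter. The 2 residual domains of Setdb1 are shown by the first 300 bases of each on the transcribed strand (minus), from chr3:95338801-95339100 and chr3:95327701-95328000, with exonic bases in capitals.
Setdb1 exon 13: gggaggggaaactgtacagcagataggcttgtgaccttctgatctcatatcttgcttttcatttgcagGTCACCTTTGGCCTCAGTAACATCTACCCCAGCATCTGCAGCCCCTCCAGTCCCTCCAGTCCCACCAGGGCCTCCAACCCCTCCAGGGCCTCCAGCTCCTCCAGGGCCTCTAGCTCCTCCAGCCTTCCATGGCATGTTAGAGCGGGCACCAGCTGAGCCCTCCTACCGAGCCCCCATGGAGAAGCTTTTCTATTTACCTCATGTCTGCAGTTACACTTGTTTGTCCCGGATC
Setdb1 exon 16: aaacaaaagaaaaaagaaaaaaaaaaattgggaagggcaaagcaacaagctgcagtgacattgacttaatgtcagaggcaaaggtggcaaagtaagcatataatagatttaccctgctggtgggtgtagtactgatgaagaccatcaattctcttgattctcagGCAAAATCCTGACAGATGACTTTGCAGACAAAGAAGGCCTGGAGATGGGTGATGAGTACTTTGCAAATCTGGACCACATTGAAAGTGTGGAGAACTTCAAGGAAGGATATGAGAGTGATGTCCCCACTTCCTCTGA

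The residual domain of Pphln1 is shown by its repeat unit of 66 bases on the plus strand, with capitals in the later versions marking bases unlike version 1. The first of each version lay at chr15:93467935-93468000, chr15:93468265-93468330, chr15:93467869-93467934 and chr15:93468331-93468396. The units shown for versions 1 and 3 lay in the array just outside the domain. The domain itself held 11 units of version 1 and 0 of version 3.
version 1: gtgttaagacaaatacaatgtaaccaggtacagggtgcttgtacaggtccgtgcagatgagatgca
version 2: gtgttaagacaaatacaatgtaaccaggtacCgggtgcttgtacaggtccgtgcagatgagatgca
version 3: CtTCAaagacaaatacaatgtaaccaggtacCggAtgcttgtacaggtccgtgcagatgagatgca
version 4: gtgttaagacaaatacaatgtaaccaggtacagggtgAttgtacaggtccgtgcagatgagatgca

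The intermediate domains of Setdb1 and Pphln1 each held a boundary between unique and copied sequence. It is shown over 300 bases on each gene's own strand, chr3:95343379-95343678 (minus) and chr15:93444583-93444882 (plus), with capitals for bases inside a 31-mer that occurs again in the genome.
Setdb1 intermediate: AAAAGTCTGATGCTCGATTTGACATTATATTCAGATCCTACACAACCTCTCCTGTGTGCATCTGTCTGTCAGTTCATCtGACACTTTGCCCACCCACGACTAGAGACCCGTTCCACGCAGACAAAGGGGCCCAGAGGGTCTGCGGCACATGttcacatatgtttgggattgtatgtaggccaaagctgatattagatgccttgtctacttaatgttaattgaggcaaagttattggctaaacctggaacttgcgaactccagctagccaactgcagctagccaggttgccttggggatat
Pphln1 intermediate: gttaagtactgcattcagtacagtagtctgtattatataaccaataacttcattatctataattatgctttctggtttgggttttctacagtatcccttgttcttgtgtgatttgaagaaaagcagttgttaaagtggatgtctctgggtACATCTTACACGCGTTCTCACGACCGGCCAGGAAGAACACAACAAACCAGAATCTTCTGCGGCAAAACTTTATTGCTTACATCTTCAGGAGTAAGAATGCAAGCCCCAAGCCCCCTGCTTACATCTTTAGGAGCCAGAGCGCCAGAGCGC

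At Atf7ip the last 300 bases of the domain, chr6:136518001-136518300 on the plus strand, are set beside the promoter sequence that RefSeq gives on GRCm38.p6, chr6:136518601-136518900, with CpG dinucleotides in capitals.
Atf7ip domain: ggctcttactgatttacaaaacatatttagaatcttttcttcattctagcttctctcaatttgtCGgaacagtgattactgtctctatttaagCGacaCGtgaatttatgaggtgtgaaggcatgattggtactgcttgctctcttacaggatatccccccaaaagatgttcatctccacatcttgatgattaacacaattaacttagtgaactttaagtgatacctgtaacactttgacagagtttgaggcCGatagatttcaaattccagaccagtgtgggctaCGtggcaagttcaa
Atf7ip promoter: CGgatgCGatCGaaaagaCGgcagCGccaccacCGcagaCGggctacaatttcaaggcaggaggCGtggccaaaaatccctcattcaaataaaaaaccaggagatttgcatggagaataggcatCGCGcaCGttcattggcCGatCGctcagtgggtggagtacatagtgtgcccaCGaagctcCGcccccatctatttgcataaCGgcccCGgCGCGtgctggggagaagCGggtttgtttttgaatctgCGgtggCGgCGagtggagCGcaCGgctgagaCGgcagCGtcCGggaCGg

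Setdb1 had 3 domains, more than any other of the 10 genes. The gene spans 33.7 kb on the minus strand of chromosome 3 (95323525 to 95357202), and the domains covered 3000 bases, or 8.65% of its window, against a median of 6.74% over the 5331 protein-coding genes with a domain. At least 2 domains were present in 8.66% of all protein-coding genes, at least 3 in 4.85%, and 2 or more residual ones in 0.652%. On the autosomes other than 8 and 11, 2.29% of genes had a residual domain and 0.342% had 2 or more. Among genes spanning 20 to 50 kb, 23.7% had a domain.

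The first domain of Setdb1, of the intermediate class, was 1.5 kb wide (95342701 to 95344200) and lay in intron 8 with 0 exonic bases. The second, residual, was 0.6 kb wide (95338501 to 95339100) and overlapped exon 13 of 22 with 532 of its 600 bases, or 88.7%. The third, also residual, was 0.9 kb wide (95327101 to 95328000) and held all 629 bases of exon 16, which made up 69.9% of it. The gaps between successive domains were 3.6 and 10.5 kb.

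Exons 13 and 16 are the longest coding exons of the transcript with the most exonic bases, at 687 and 629 coding bases. The other 20 exons had 0 bases in domains, and their coding lengths were 260 bases at most. Exon 22, of 666 bases, has 115 coding bases, the rest being untranslated. The exonic bases of both residual domains were coding throughout, and all 3 coding transcripts of the gene use them. Exon 13 had 77.4% of its length inside the domain and exon 16 had 100%. Domains lie on a grid of 300 bp, so their edges fall on grid points and do not resolve the position of an exon edge to the base.

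Both residual domains of Setdb1 were more exonic than most of their class, but also narrower. They were 0.6 and 0.9 kb wide, against a residual median of 2700 bp, and the exonic share of a domain depends on its width. The shares that follow were not matched for width or chromosome. Exons filled 88.7% and 69.9% of them, against a median of 3.61% (quartiles 0 and 36.9%) over the 1114 overlaps of residual domains with coding-gene windows. An exonic share at least as high as the lower of the pair was present in 163 of those 1114, or 14.6%, and at least as high as the higher one in 107, or 9.61%. Any exonic base was present in 54.7% of residual and 25.3% of intermediate overlaps. Of 143 coding genes with at least 2 residual domains, 3 had 2 that were at least 50% exonic; Setdb1 and Zic4, a zinc finger transcription factor gene on chromosome 9, were those outside chromosomes 8 and 11. The 50% limit was chosen after these values were seen.

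**Figure D1:**
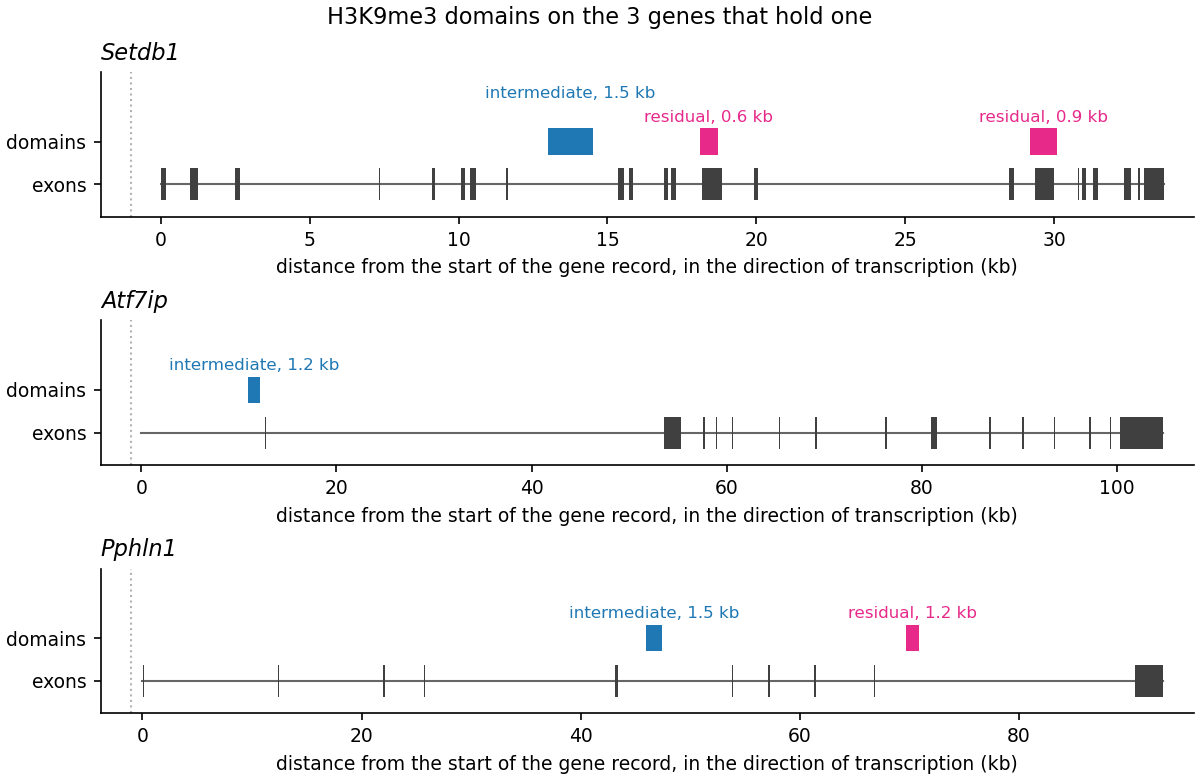
Positions of H3K9me3 domains (coloured by class) over the exons (dark boxes) of the longest coding transcript of Setdb1, Atf7ip and Pphln1, against distance in kb from the start of the gene record; the dotted line marks 1 kb upstream. Both residual domains of Setdb1 sit on its longest coding exons, while the residual domain of Pphln1 and the domain of Atf7ip touch no exon.

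**Figure D2:**
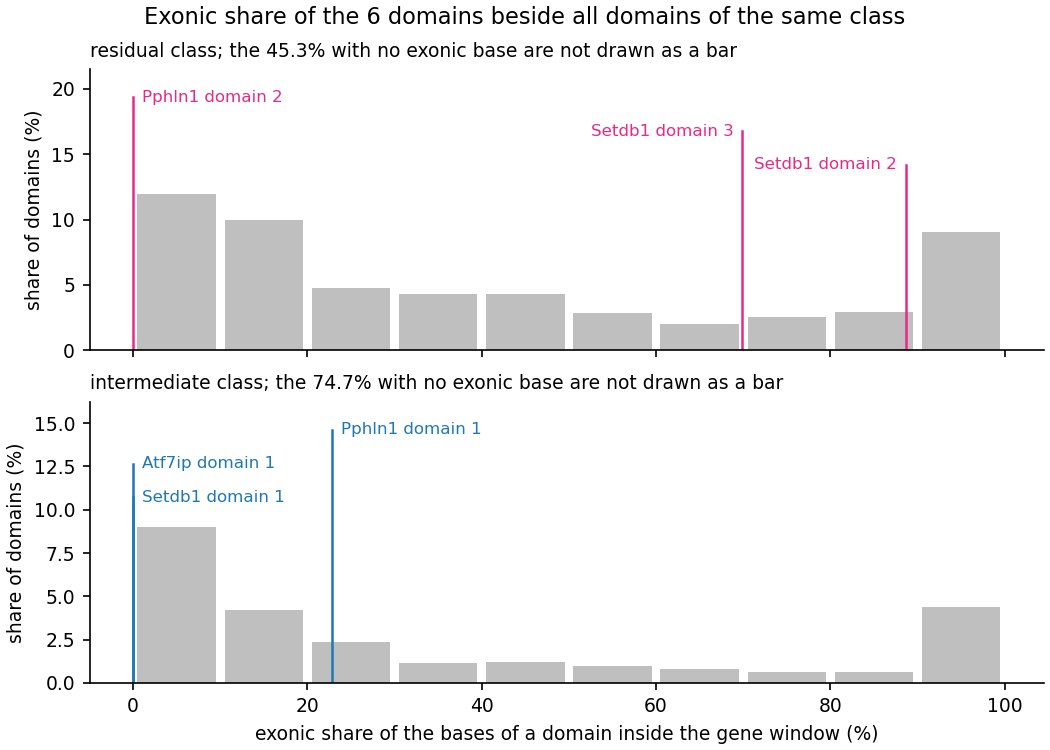
Grey bars give the share of all residual (top) and intermediate (bottom) domains on coding genes in each range of exonic share, in percent, leaving out those with 0 exonic bases, and coloured lines of arbitrary height mark the 6 domains described here. Setdb1 domains 2 and 3 lie at 88.7% and 69.9%, and Pphln1 domain 1 at 22.8%.

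The exonic domains of Setdb1 were unique sequence in the reference genome. All 570 and 870 31-mers of domains 2 and 3 occurred once, and soft-masked (repeat) bases made up 3.0% and 6.11% of them, against a median of 17.05% over all residual domains. Their GC content was 50.8% and 48.4%, against a residual median of 47.8%. At 0.6 and 0.9 kb they were narrow for their class: 1.89% and 4.49% of residual domains were of that width or narrower. Uniqueness was counted on the reference genome, which has 1 Setdb1 gene; any further Setdb1 sequence carried by the engineered line would not be seen by this count, and its part in these domains was not tested.

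The intronic domain of Setdb1 was of another kind, with 62.6% soft-masked sequence. Of its 1470 31-mers, 574 occurred again elsewhere, and the median such 31-mer had 68 other copies. Of all 248008 copies over 5 kb away together, 11.98% lay in H3K9me3 domains and 9.43% in intermediate ones, where domains cover 6.28% and intermediate domains 3.86% of the chromosomes. These totals are weighted towards the most frequent 31-mers, with up to 36175 occurrences; the medians over 31-mers were 46.2% of copies in domains and 36.7% in intermediate ones. Intermediate was the class of most of its copies that lay in a domain, and also of 71.5% of all domains. How reads were placed among copies is not stated, and its part in the class was not tested.

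Pphln1, which encodes the HUSH subunit periphilin, had 2 domains over 93.2 kb on the plus strand of chromosome 15 (93398350 to 93491510), covering 2.87% of its window. Domain 1, intermediate and 1.5 kb wide (93444301 to 93445800), lay in intron 5. It overlapped 342 exonic bases, 22.8% of its width, all from 1 non-coding transcript of the gene's 7; 0 coding bases were inside. Domain 2, residual and 1.2 kb wide (93468001 to 93469200), lay in intron 9 with 0 exonic bases. Among genes spanning 50 to 100 kb, 39.4% had a domain.

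Domain 2 of Pphln1 was a tandem repeat from end to end. Shifted by 66 bp, 99.03% of its bases matched, against 28.2 and 33.0% for the residual domains of Setdb1 at a shift chosen in the same way. The array ran for 1386 bases (93467869 to 93469254) as 21 units that took 4 versions. Version 1 made up 12 units, version 2, with 1 base unlike it, made up 7, and versions 3 and 4 had 1 unit each. The domain lay wholly inside the array. Although 1139 of its 1170 31-mers occurred more than once, up to 21 times, 0 copies lay over 5 kb away.

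None of the domain was soft-masked, so the share of masked bases (0%) and the share of unique 31-mers (0% of those read every 100 bp) describe this domain differently. A match of at least 70% at any shift from 20 to 300 bp was present in 46 of 1960 residual domains, or 2.35%, against 0.291% of all domains and 0.147% of intermediate ones. In the Pphln1 domain 2.65% of all 31-mers occurred once, so most but not all stretches of that length could not be assigned to one unit.

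**Figure D3:**
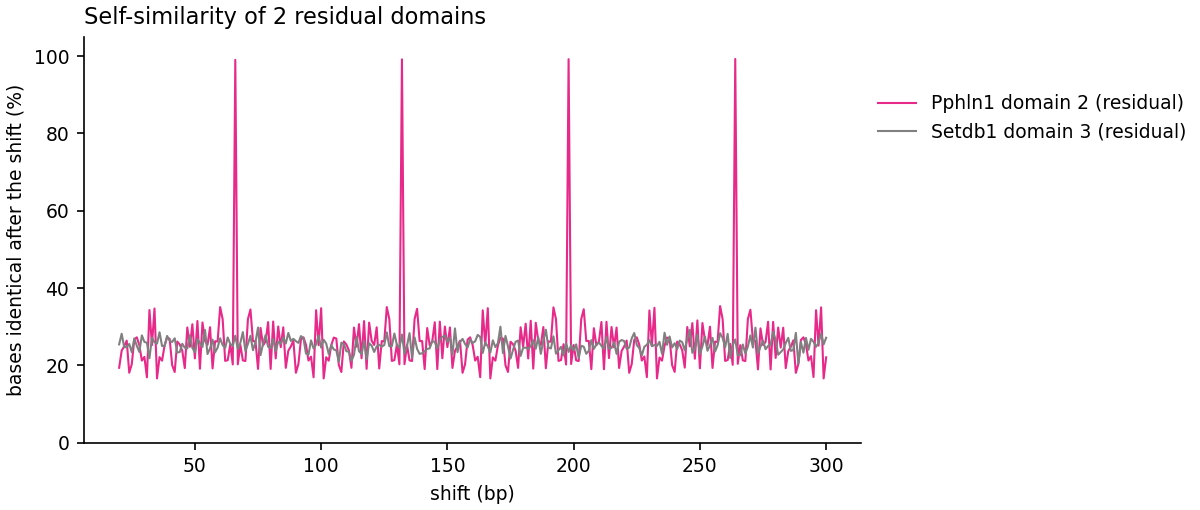
Share of bases (percent) identical to the base a given shift (bp) further on, for the residual domain of Pphln1 and the third domain of Setdb1, over shifts of 20 to 300 bp. Pphln1 peaks at 66 bp, where 99.03% match, and at its multiples, and the Setdb1 domain has no such peak.

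Domain 1 of Pphln1 joined unique sequence to a stretch that recurs through the genome. Of its 1470 31-mers, 368 had copies elsewhere, with a median of 100 other copies each, on 21 chromosomes. Of all 218327 copies over 5 kb away together, 95.6% lay in H3K9me3 domains, 78.6% in slow and 16.4% in intermediate ones. The medians over 31-mers were 97.6% in domains, 73.9% in slow and 21.9% in intermediate ones. Slow domains cover 1.95% of the chromosomes. The domain at Pphln1 was itself intermediate, so its class differed from that of most of its copies.

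Atf7ip, whose product partners SETDB1, had 1 intermediate domain of 1.2 kb (136517101 to 136518300) over 104.7 kb on the plus strand of chromosome 6 (136506167 to 136610862). It covered 1.14% of the window and 0 exonic bases. The gene record opens with the start of 1 incomplete coding transcript, and the transcript with the most exonic bases starts further in. The domain ran from -1.701 to -0.502 kb relative to that start and overlapped the 1 kb flank of the starts of 3 of the 8 coding transcripts. Setdb1 and Pphln1 had a domain within 1 kb of 0 of their coding transcript starts. The domain also overlapped Gm44140, annotated as a non-coding RNA gene on the other strand. Among genes spanning 100 to 200 kb, 59.6% had a domain.

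The Atf7ip domain was poor in CpG and almost all unique. Its observed over expected CpG ratio was 0.103, below the lower quartile of intermediate domains (0.162), and 98.6% of its 31-mers occurred once, with 22.2% of bases soft-masked. Its 16 copied 31-mers had 0% of their other copies in domains, unlike the copied parts of the intermediate domains of Setdb1 and Pphln1. Over the stretches shown, the domain's last 300 bases held 5 CpG dinucleotides and the promoter 29, with GC contents of 38.7% and 58.7%. The CpG ratio was 0.446 in those last 300 bases and 1.138 in the promoter. The stretch shown was thus richer in CpG than the domain as a whole, and above the upper quartile of intermediate domains (0.298). The domain thus stopped short of the CpG-rich promoter.

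The other methyltransferase genes held no domain, and their distance to the nearest one varied widely. Suv39h1, floxed in this line, spans 13.6 kb on X (8061171 to 8074760), and its nearest domain lay 248.3 kb away, against a median of 25.01 kb over all protein-coding genes. Suv39h2, labelled -/- in this line, spans 19.2 kb on chromosome 2 (3455815 to 3475031) and had a slow domain of 5.4 kb on the neighbouring gene Hspa14, 7.57 kb upstream of its window. Among genes spanning 10 to 20 kb, 15.2% had a domain.

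Ehmt1 spans 129.7 kb on chromosome 2 (24789928 to 24919614) with 0 domains in its window and 0 within 100 kb; the nearest, slow and 1.5 kb wide, lay 154.2 kb downstream on Cacna1b, a calcium channel gene. In its range of span, 100 to 200 kb, 59.6% of coding genes had a domain. Ehmt2 spans 15.6 kb on chromosome 17 (34898469 to 34914052). Its nearest domain was a residual one of 1.5 kb, 42.8 kb downstream on the heat shock gene Hspa1b (34956901 to 34958400). Of the 31-mers read in that domain 33.3% were unique, so sequence shared with near-identical copies may contribute there, which was not tested.

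Trim28, Mphosph8 and Morc2a, the remaining partners, also had 0 domains in their windows. Each spans between 20 and 50 kb, a range in which 23.7% of coding genes had a domain. Trim28, the corepressor that links KRAB zinc finger proteins to SETDB1, has a record of 31.9 kb on chromosome 7 (12999114 to 13031035), which is longer than the RefSeq gene, and 3 intermediate domains lay downstream within 100 kb, the nearest 49.3 kb away. Mphosph8, the H3K9me3-binding subunit of HUSH, spans 29.2 kb on chromosome 14 (56668248 to 56697430), and an intermediate domain of 1.2 kb on Parp4 lay 39.8 kb upstream.

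Morc2a, on chromosome 11 (3649191 to 3690477), had the nearest outside domain of the 10 genes. It was intermediate, 8.7 kb wide (3636901 to 3645600), lay on the non-coding RNA gene Tug1, and ended 2.59 kb upstream of the window. Soft-masked bases made up 11.4% of it and unique 31-mers 90.8%, against intermediate medians of 72.3% and 50.0%. It reached within 5 kb of the Morc2a record but not within 1 kb. Residual domains of 1.8 and 1.2 kb lay 19.7 and 80.6 kb upstream. A residual domain was present inside the window of 3.56% of all coding genes, but of 2.29% of those on autosomes other than 8 and 11. These shares do not count domains outside windows, such as those near Morc2a, and no share for chromosome 11 alone is given here.

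Across the 10 genes the nearest outside domain lay at a median of 29.9 kb (quartiles 15.5 and 47.7 kb), against 25.01 kb (9.21 and 62.1 kb) over all protein-coding genes. Those nearest domains were 5 intermediate, 3 slow and 2 residual, and no matching share over all protein-coding genes is given here. Within 100 kb of the windows, the genes had a median of 3 domains, against 2 over all protein-coding genes, from 0 at Suv39h1 and Ehmt1 to 8 at Atf7ip. Of the 8 around Atf7ip, 7 were intermediate and 1 slow, and those around Setdb1 were 2 slow and 2 intermediate, so neither of its residual exons had a residual neighbour outside the gene within 100 kb. Downstream of Pphln1 a residual domain of 2.7 kb lay on Prickle1, 15.2 kb away.

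**Figure D4:**
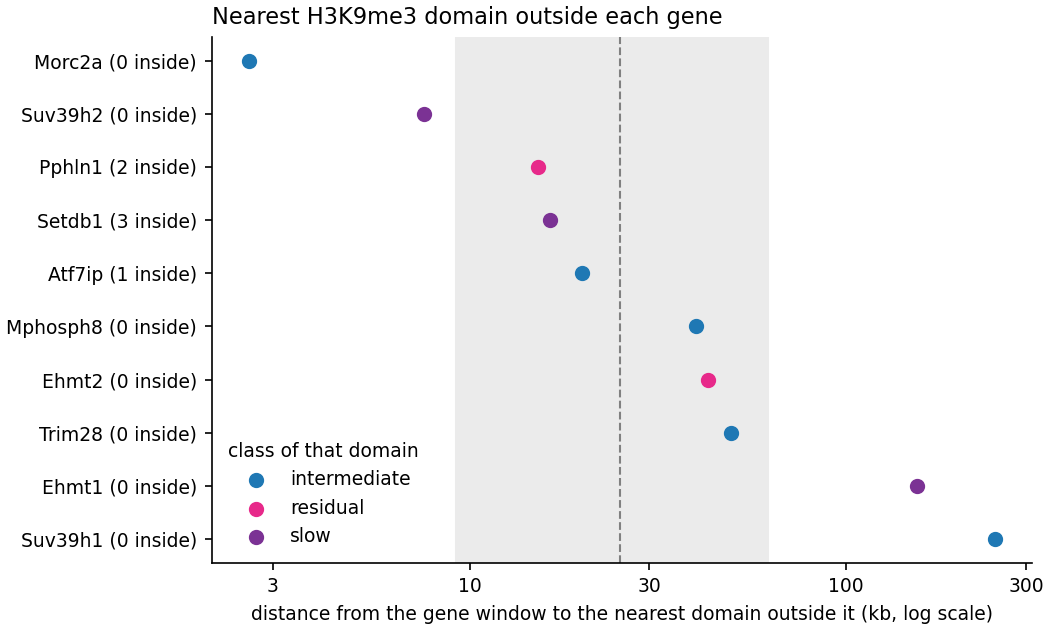
Distance in kb (log axis) from each gene window to the nearest H3K9me3 domain outside it, coloured by class, with the number of domains inside the window in brackets. The dashed line and grey band give the median, 25.01 kb, and the quartiles, 9.21 and 62.1 kb, over all protein-coding genes; Morc2a lies at 2.59 kb and Suv39h1 at 248.3 kb.

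Wider lists of the same system were read in the same way, with 54 of 54 symbols matched. A domain was present on 13 of these 54 genes, against 24.3% of all protein-coding genes. A residual domain was present on 1 of the 54, against 3.56% of all protein-coding genes. The 54 genes met 18 domains, 14 intermediate, 3 slow, 1 residual and 0 fast. Their median span was 45.3 kb, against 17.4 kb for all protein-coding genes, and longer genes more often held a domain. These counts describe the lists and were not tested.

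Of 4 other genes of the PRDM and SETDB families, with a median span of 213.2 kb, 2 had domains. In the longest range of span counted, 100 to 200 kb, 59.6% of coding genes had a domain. Prdm16, a gene of brown fat identity spanning 320.7 kb on chromosome 4, had 3 intermediate domains, 2 of them with exonic bases (409 and 1417), and a residual one of 1.8 kb (154633201 to 154635000) with 0. Mecom had 2 intermediate domains over 596.7 kb, of which 1 was soft-masked over 100% and the other over 16.2%. Setdb2 and Prdm2 had none.

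Among 14 further HUSH, KAP1 and SETDB1 partner genes, 5 had a domain and none was residual. Their median span was 44.5 kb, and 23.7% of coding genes spanning 20 to 50 kb had a domain. Atf7ip2, the paralogue of Atf7ip, carried an intermediate domain of 9.9 kb (chromosome 16, 10216201 to 10226100), which covered 16.6% of its window, against 1.14% for Atf7ip. Morc2b, the paralogue of Morc2a, carried one of 4.2 kb over 15.4% of its window, against 0% for Morc2a. Both were mostly soft-masked, at 88.4% and 82.4%. Trim24, a relative of Trim28, had an intermediate domain of 4.5 kb with 141 exonic bases, and the chromatin remodeller gene Smarcad1 had one of 2.4 kb that was soft-masked over 100%. At Fam208b, whose product is a paralogue of the HUSH subunit TASOR, 708 bases of a slow domain of 14.7 kb reached the upstream edge of the window; Fam208a, which encodes TASOR, had none.

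Of 5 G9a and GLP partner genes, Wiz, Zfp462 and Cdyl2 had a domain. The median span of the 5 was 138.5 kb, and 59.6% of coding genes spanning 100 to 200 kb had a domain. On Wiz an intermediate domain of 7.2 kb covered 19.8% of the window and was soft-masked over 98.2%. On Zfp462 the domain was intermediate, 3.0 kb wide and exonic over 2395 bases, and 100% of the 31-mers read in it were unique. On Cdyl2 it was slow, 1.8 kb wide and intronic. The genes for the 3 HP1 proteins, which bind H3K9me3, and all 13 genes for HP1 partners and chromatin assembly had 0 domains. Median spans of these 2 lists were 19.5 and 31.9 kb. A domain was present on 15.2% of coding genes spanning 10 to 20 kb and on 23.7% of those spanning 20 to 50 kb.

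Among 11 H3K9 demethylase genes, Phf8 on X had an intermediate domain of 2.4 kb and a slow one of 7.2 kb, and Kdm4d on chromosome 9 an intermediate one of 1.8 kb. The median span of the 11 was 69.4 kb, and 39.4% of coding genes spanning 50 to 100 kb had a domain. Of 4 DNA methyltransferase genes, Dnmt3a had an intermediate domain of 1.2 kb, of which 794 bases lay in the window upstream of the gene. The median span of the 4 was 45.5 kb, and 23.7% of coding genes spanning 20 to 50 kb had a domain.

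**Figure D5:**
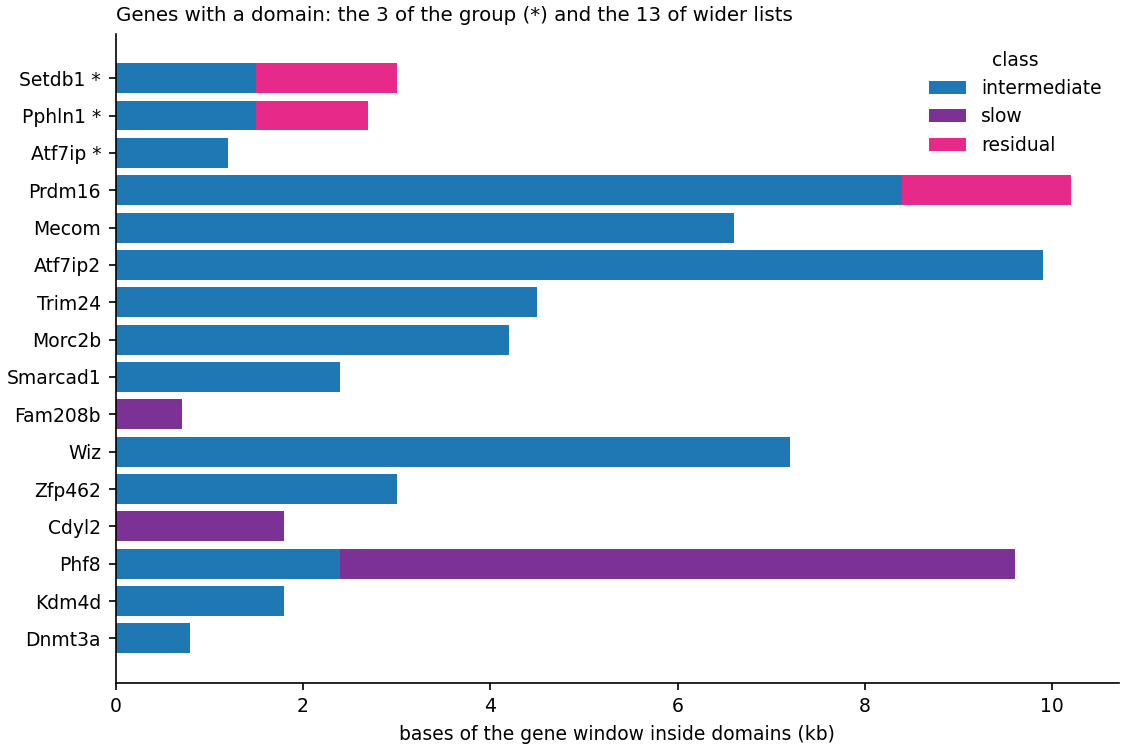
Bases (kb) of each gene window inside H3K9me3 domains, stacked by class, for Setdb1, Pphln1 and Atf7ip (starred) and then for the 13 genes of the wider lists with a domain. Residual bases are present at Setdb1 and Pphln1 and, in the wider lists, at Prdm16.

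Genes with the same set of classes, a span within 2-fold and the nearest share of the window in domains were found on other chromosomes. For Setdb1 (8.65%) they were Sfxn2 on chromosome 19 (8.17%) and Dytn on chromosome 1 (9.68%), each with 1 intermediate and 1 residual domain, out of 22 candidates. For Pphln1 (2.87%) they were Ano5 on chromosome 7 (3.01%) and Zfp652 on chromosome 11 (3.16%), out of 61. For Atf7ip (1.14%), with 1105 candidates, Tbck on chromosome 3 and Zzef1 on chromosome 11 had the same share. These are likenesses in covered length, and the first 2 genes lacked the second residual domain of Setdb1.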

How the data were processed

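The authors' deposited table gives a chromosome, start, end and decay class in words for each H3K9me3 domain, and its score column holds 0 throughout. Per the submitters' processing notes, Bowtie2 2.3.4.1, SAMtools 1.1, deepTools and bedtools were used, and the builds named are mm10, dm6, mm9 and GRCm38. The labels do not state how domains were called, classed or scaled by the spike-in. Depth per domain is unknown, and signal tracks, reads and HP1β data were not analysed here.

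Windows were GENCODE vM21 gene records plus 1 kb upstream, and an overlap needed 1 bp. GC content, observed over expected CpG ratio and soft-masked share came from GRCm38.p6, with 0 domains past a chromosome end. For the shares in all domains, 31-mers were read every 100 bp; in the 6 domains on the genes, copies of every 31-mer were counted on chromosomes 1 to 19, X and Y. Self-similarity was the share of bases identical after shifts of 20 to 300 bp, with the shortest shift within 3 percentage points of the best. The overlap, copy and shift code was tested on simulated data. Python 3.11.15, numpy 2.4.6, pandas 2.3.3, numba 0.67.0 and matplotlib 3.10.9 were used.

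The table holds no value per library or time, so no test over samples was made. Genes and lists were chosen with earlier results of these data known. All 10 genes are named, with every gene of 7 wider lists that holds a domain, neighbours that share a domain, and the 2 coding genes nearest to each gene with a domain in the share of the window covered. Alternatives varied the upstream reach, the overlap rule, the shortest domain, the gene model and the exon set.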

Additional observations from a re-analysis of the deposited data

How the results depend on the processing

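The table holds 1 class per domain, so depth, replicate error and the distance of a domain from a class limit cannot be read from it. The count of 6 domains on the 10 genes was 2 when domains had to reach 1.5 kb: Setdb1 domain 1 and Pphln1 domain 1, both intermediate, with 0 residual domains. It was 7 with 5 kb upstream, which added the domain at Tug1 to Morc2a, and 6 with no upstream reach, by domain midpoint, with at least 50% of the domain in the window, or with the span of the longest coding transcript. Genes with a domain numbered 2 to 4 of 10 across these alternatives. Exonic domains numbered 2 in place of 3 with exons of coding transcripts, with exons of the longest coding transcript, or by midpoint in an exon, which left the Setdb1 pair. The wider lists had 11 to 16 genes with a domain, against 13. Of 60 counts for single genes, 56 stayed within 1.5 times, but most of these were counts of 0 on genes without a domain. With domains of at least 1.5 kb, Setdb1 went from 3 to 1, Pphln1 from 2 to 1 and Atf7ip from 1 to 0. No paired analysis was possible because the table has no values per sample.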
